A study of Sus scrofa with 63 samples.

Results

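Reciprocal crosses between Large White (LW) and Meishan (MS) pigs were compared in the fetal jejunum at day 90 of gestation. The 9 LWMS fetuses had an LW sire and an MS sow, and the 8 MSLW fetuses had an MS sire and an LW sow. These 17 fetuses were all those of the 63 in the series whose labels gave a crossbred genotype and day 90, so no measured value chose them. The other groups were 6 MS and 9 LW purebred fetuses at day 90 and, at day 110, 9 LWMS, 6 MSLW, 7 MS and 9 LW fetuses. Sows received semen of both breeds at once, so LWMS fetuses were litter mates of purebred MS fetuses and MSLW fetuses of purebred LW fetuses. All fetuses were males delivered by caesarean, with a body weight near the mean of their litter, and RNA came from whole tissue of a middle jejunal segment. Each fetus was hybridised to 1 single-colour Agilent array of 60-base probes.

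A male inherits his X chromosome and his mitochondrial genome from his dam and his Y chromosome from his sire. LWMS and MSLW fetuses hold equal shares of autosomal DNA from each breed, but an LWMS male has the X chromosome and mitochondria of the MS breed, an MSLW male those of the LW breed, and each grew in the uterus of a sow of that breed. Imprinted genes are a further class in which reciprocal crosses can differ, because only the copy from a given parent is expressed. In these fetuses the breed of the sow, the uterus, the X chromosome and the mitochondrial genome cannot be told apart, and since the labels used here do not tie a fetus to its dam, fetuses of one litter entered the tests as if unrelated.

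Values are background-corrected signals of a probe on a log2 scale, with the 75th percentile of its array set to 0, called log2 signals, and differences are LWMS minus MSLW unless stated. A probe was called when its adjusted p (limma, Benjamini-Hochberg over all 40515 probes tested) was under 0.05. Between 59.2 and 87.6% of probes stood well above background in LWMS (median 64.5%) and between 56.3 and 70.7% in MSLW (median 68.1%), and the means of the groups differed by 0.799 percentage points (exact permutation test, two-sided, p = 0.865 over 24310 arrangements). The highest value belonged to LWMS fetus 823, which stood apart from the next at 67.5%, and without it 94 probes were called, of which 90 were among those called with it. Mean log2 signals of 9 enterocyte markers, villin and fatty acid binding proteins among them, were 3.78 to 4.37 (median 4.01) in LWMS against 3.30 to 4.08 (median 3.93) in MSLW, and the 9 smooth muscle markers had 4.37 to 4.68 (median 4.54) and 4.36 to 5.16 (median 4.57). All 9 enterocyte markers were well above background on at least 1 array of each cross. In whole tissue, fewer cells of a type and less RNA per cell cannot be told apart.

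The sequences below, given 5′ to 3′ as in the array files, are shown because probes that overlap by 44 to 49 of their 60 bases gave unequal differences between the crosses. In COX2, the mitochondrial gene for subunit 2 of cytochrome c oxidase, a pair of probes overlapped by 48 bases and differed there at 1 base, A33T counted from the 5′ end of the first probe. The differing base is in capitals.
COX2 A_72_P746371: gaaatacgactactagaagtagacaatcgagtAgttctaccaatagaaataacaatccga
COX2 A_72_P751248: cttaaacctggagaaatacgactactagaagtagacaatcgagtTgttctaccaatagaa
In ND1, the mitochondrial gene for a subunit of respiratory complex I, the windows of a pair of probes were shifted by 16 bases. The 43 bases that they hold in common are in capitals.
ND1 A_72_P745561: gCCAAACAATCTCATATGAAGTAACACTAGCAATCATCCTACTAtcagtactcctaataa
ND1 A_72_P754234: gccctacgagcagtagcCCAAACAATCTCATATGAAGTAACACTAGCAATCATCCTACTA
A called probe with no gene name overlapped a probe of DIAPH2, an X-linked formin that organises actin, by 49 bases with 1 difference, A19C counted from the 5′ end of the unnamed probe. The differing base is again in capitals.
Unnamed A_72_P706838: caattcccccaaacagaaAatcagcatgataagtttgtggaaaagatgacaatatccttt
DIAPH2 O9442: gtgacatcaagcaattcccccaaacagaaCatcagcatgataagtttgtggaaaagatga
MAGEL2, an imprinted gene expressed from the paternal copy, is shown as well, with no base marked. Its difference between the crosses had the opposite sign to that between the purebreds.
MAGEL2 A_72_P493343: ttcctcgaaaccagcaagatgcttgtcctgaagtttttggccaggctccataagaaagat

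Most of the probes that differed between the crosses were lower in LWMS, and X-linked and mitochondrial genes held a large part of those with a known location. Of 40515 probes tested, 111 were called (0.274%), 16 of them higher in LWMS (0.0395%) and 95 lower (0.234%). At an unadjusted p under 0.05 the number was 4325 (10.7%). The called differences had absolute log2 values of 0.47 to 3.18 with a median of 1.11, and 65 exceeded 1, whereas the median over all probes tested was 0.19. Between the crosses, the groups did not overlap in 67 of the called probes, against 0.244% of all probes tested, and 105 of them had the same sign within each of the 6 slides that held fetuses of both crosses, against 8.00% of all. Both counts come from the arrays that chose the probes, so they describe the calls and give no separate evidence. All 111 were also called with the slide as a block or with array weights, and 67 stayed called whichever of the 17 arrays was left out. Fewer of the 111 stayed called under other normalizations, 67 with median centring, 79 with normexp background correction and 82 with quantile normalization. With the 17 fetuses fitted alone, 83 of them did. A gene name could be given to 69 of the 111 probes, in 46 genes, and 42 had no name.

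By location, 23 of 816 X-linked probes were called (2.82%), as were 18 of 127 mitochondrial probes (14.2%) and 24 of 21653 autosomal probes (0.111%). The X-linked calls fell in 15 of 366 genes, with 6 probes higher and 17 lower in LWMS. The mitochondrial calls fell in 5 of 13 genes, with 1 probe higher and 17 lower. None of the 4 Y-linked probes tested was called. A further 46 called probes had no chromosome. These include the PBDC1 probes lower in LWMS, the unnamed RPGR variant probe and the unnamed probe that overlaps DIAPH2. The X-linked counts leave them out. Chromosomes are those of the genes in RefSeq's Sscrofa11.1 annotation. Genes with none there counted as X-linked if they were on the textbook list of X-linked genes. The median difference was small in each class, at 0.06 for the X, -0.06 for mitochondrial and 0.08 for autosomal probes. Most probes of both the X and the mitochondrial class were not called.

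Among X-linked genes, FAM199X had the largest difference of the called probes. The log2 signals of its probe A_72_P154256 ranged from -7.75 to -6.03 (median -6.97) in LWMS and from -4.00 to -3.22 (median -3.66) in MSLW. No LWMS array was well above background for it and 7 of 8 MSLW arrays were. With dimmer LWMS values raised to the lowest signal well above background on each array, the MSLW mean was 2.80-fold higher. That value holds for this background correction only and is no lower bound under the others. The fitted difference was -3.18 with a standard error of 0.31 (adjusted p = 2.03e-10), and the groups did not overlap. Its size rests on how the background is subtracted, since it was -0.78 with normexp correction and -1.39 in the authors' processed values, called both times. A brighter FAM199X probe was lower in LWMS by less (-0.73, adjusted p = 0.00434), and the remaining probe did not pass (-0.29, adjusted p = 0.401).

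PRPS2, which encodes an enzyme that makes phosphoribosyl pyrophosphate for nucleotide synthesis, was the clearest X-linked gene in the other direction. Its probe A_72_P317898 had log2 signals of 0.74 to 1.61 (median 1.31) in LWMS against -0.25 to 0.51 (median 0.12) in MSLW. These groups were apart, with a difference of 1.19 (standard error 0.13, adjusted p = 8.77e-09), and a second probe gave 1.09 (adjusted p = 4.63e-06). Its remaining probe ran from 2.32 to 3.04 in LWMS and from 2.19 to 2.83 in MSLW and did not pass (0.13, adjusted p = 0.708). NLGN3, a synaptic adhesion protein of the neuroligin family, had log2 signals of -3.91 to -2.34 (median -3.28) in LWMS against -5.86 to -4.28 (median -4.84) in MSLW. All LWMS values lay above all MSLW values of this gene, with a difference of 1.71 (standard error 0.28, adjusted p = 0.000137) that was 0.76 with normexp correction and 1.05 in the authors' values. LOC100157285, on the X chromosome but with no established symbol, was at 2.47 to 3.74 (median 3.12) in LWMS against -0.41 to 1.93 (median 1.14) in MSLW. The difference was 2.23 (standard error 0.48, adjusted p = 0.012), and it was not called without MSLW fetus 899 (adjusted p = 0.0517) or fetus 900 (adjusted p = 0.0546). DUSP9, a phosphatase that switches off MAP kinases, was higher in LWMS by 0.93 (adjusted p = 0.0308), a call lost in 7 of the 17 fits that left out an array and with no filter on dim probes (adjusted p = 0.0544).

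The X-linked genes that were lower in LWMS serve chromatin, RNA processing, cilia and synapses, among other roles. ATRX, a chromatin remodeller, was lower on all 4 of its probes and called on 3. The first of these had -2.50 to -1.11 (median -1.57) in LWMS against -0.75 to -0.24 (median -0.51) in MSLW. That probe differed by -1.09 (standard error 0.20, adjusted p = 0.00119) with no overlap of the groups, and the smallest ATRX difference called (-0.49, adjusted p = 0.0445) was lost in 13 of the fits that left out an array. MUM1L1 was lower on all 3 of its probes (-1.84, -1.49 and -0.98, adjusted p = 0.00093, 0.000941 and 0.0181), and the largest difference was not called with normexp correction (-0.58, adjusted p = 0.0906). RPGR, a ciliary regulator of GTPases, had log2 signals of -2.59 to -1.43 (median -1.95) in LWMS against -1.04 to -0.52 (median -0.77) in MSLW, which did not overlap. Its difference was -1.19 (standard error 0.17, adjusted p = 3.51e-06), and a second RPGR probe differed by -0.26 and was not called. An unnamed probe that the array describes as an RPGR variant, A_72_P389813, differed by -2.97 (adjusted p = 1.03e-09).

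Further X-linked genes that were lower in LWMS were IQSEC2, an exchange factor for ARF GTPases at synapses (-0.89 and -0.47 on a pair of probes that share 30 bases, the second lost in 6 fits that left out an array), ARMCX6 (-0.88), CSTF2, a subunit of the factor that cleaves pre-mRNA before polyadenylation (-0.81), and MOSPD2, a protein of contact sites of the endoplasmic reticulum (-2.02, adjusted p = 0.0226, but -0.56 and adjusted p = 0.384 with normexp correction). The other MOSPD2 probes gave -0.20 and 0.00, and this gene's call was also lost without LWMS fetus 520 or MSLW fetus 450. SRPX2, a secreted sushi-repeat protein linked to angiogenesis, did not overlap between the crosses on either of its probes, with differences of -1.94 (adjusted p = 2.03e-10) and -0.68 (adjusted p = 0.0684). PBDC1 was the X-linked gene whose probes ran in opposite directions. Its log2 signals on A_72_P195932 were -4.67 to -3.67 in LWMS and -2.45 to -1.89 in MSLW, a difference of -2.11 (adjusted p = 1.13e-08), and A_72_P267726 gave -2.01, whereas A_72_P222662 gave 0.71 (adjusted p = 0.0299), a call lost in 9 of the fits that left out an array. The name PBDC1 comes from the study's tables for the first of these probes and for A_72_P267726, so whether all 3 read the same transcript is not established here. Only A_72_P222662 was counted among the X-linked probes.

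**Figure D1:**
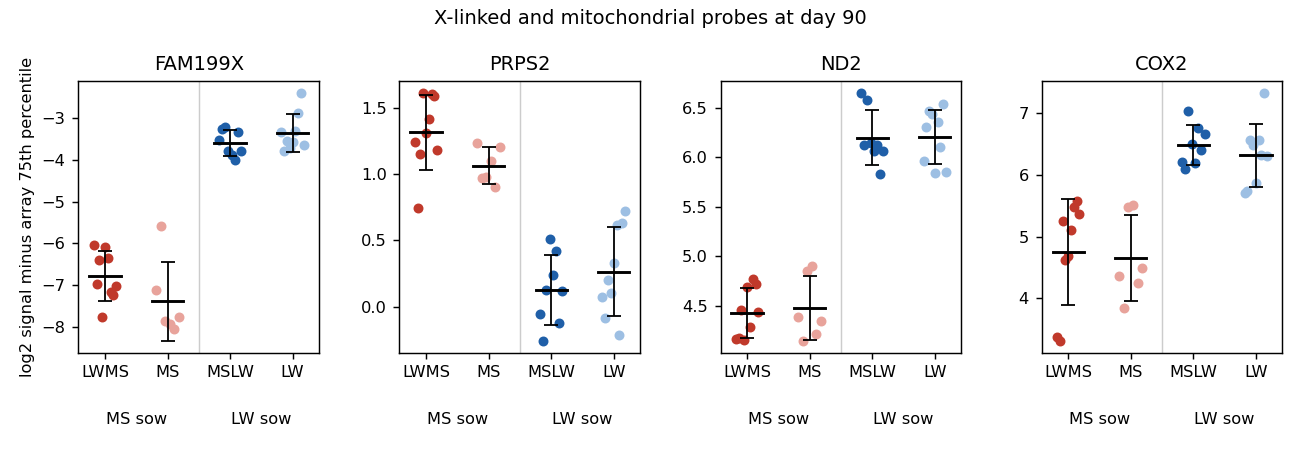
Log2 signal (75th percentile of each array set to 0) at day 90 for 1 probe each of the X-linked genes FAM199X and PRPS2 and the mitochondrial genes ND2 and COX2. Each point is a fetus, the line and bar are the mean and SD, and fetuses of MS sows (9 LWMS, 6 MS) are left of those of LW sows (8 MSLW, 9 LW). In all panels LWMS lies with MS and apart from MSLW and LW.

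On mitochondrial genes, the difference between the crosses varied widely among probes of the same gene. ND2, a subunit gene of complex I, had 6 of 12 probes called, all lower in LWMS, and the lowest and highest differences of its probes were -2.43 and -0.12. Its probe A_72_P737152 had log2 signals of 4.15 to 4.77 (median 4.44) in LWMS against 5.83 to 6.65 (median 6.12) in MSLW. With a difference of -1.77 (standard error 0.16) it had the smallest adjusted p of the named probes (7.85e-11). ND1 had 6 of 20 probes called, 5 lower and 1 higher, and its differences ran from -2.13 to 0.71. COX1, the catalytic subunit gene of cytochrome c oxidase, had 3 of 25 called, all lower, with differences of -2.38 to 0.46. CYTB, the cytochrome b gene of complex III, had 2 of 21 called and COX2 1 of 5. No probe was called for ATP6, ATP8, COX3, ND3, ND4, ND4L, ND5 or ND6, of which COX3 had 14 probes and ND4 had 11 tested. The lowest difference among the uncalled genes was -0.50 (standard error 0.40), on a dim ND4 probe with a median log2 signal of -4.31 in LWMS. The other ND4 probes gave -0.11 to 0.35. The highest difference among the uncalled genes was 0.59, in ND3. All 18 called mitochondrial probes stayed called whichever array was left out.

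The overlapping probes printed above make the contrast within a gene plain. The first COX2 probe had log2 signals of 3.31 to 5.58 (median 5.10) in LWMS against 6.10 to 7.04 (median 6.46) in MSLW, and the second 6.99 to 7.77 (median 7.44) and 7.25 to 7.87 (median 7.46). So the crosses were apart on the first and overlapped on the second. Their differences were -1.73 (standard error 0.32, adjusted p = 0.000941) and -0.07 (standard error 0.14, adjusted p = 0.858). The first ND1 probe had 2.69 to 4.06 (median 3.87) in LWMS against 5.32 to 6.16 (median 5.64) in MSLW, and the second 5.19 to 5.90 (median 5.51) and 5.71 to 6.54 (median 6.11). Both were lower in LWMS, by -2.13 (standard error 0.28) and -0.62 (standard error 0.13), although they share 43 bases. A further ND1 probe, A_72_P739924, whose window lies between them with 3 bases changed from the first and 12 from the second, differed by -1.05 (standard error 0.14). The unnamed probe that overlaps DIAPH2 ran from -3.91 to -2.74 (median -3.21) in LWMS and from -2.10 to -1.48 (median -1.81) in MSLW, with a difference of -1.51 (standard error 0.19, adjusted p = 1.04e-07), whereas the DIAPH2 probe gave -0.32 (standard error 0.13, adjusted p = 0.354). In CYTB, a probe at -0.997 overlapped by 42 bases, with 1 difference, a probe at -0.36 that was not called. Differences between overlapping probes were not themselves tested, and the bases that the fetuses carry at these positions were not analysed here.

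The brightest probe of each mitochondrial gene gave a different picture from the called probes. The list of mitochondrially encoded genes had 14 entries with a tested probe, a set drawn separately from the 13 genes counted by location. On their brightest probe, 0 were called by limma and 3 were lower at an unadjusted p under 0.05, with a median difference of -0.11. Of the 14 entries, 5 had another probe that was called. The nuclear genes of oxidative phosphorylation, also on their brightest probe, were positive in 25 of 26 with a median of 0.24, beside 0.02 over all probes. Of these, 0 were called by limma, and CYC1 (0.30), UQCRFS1 (0.84) and, in the other direction, COX7B (-0.57) passed an unadjusted p under 0.05. Some other lists read this way leaned positive too, with 14 of 16 chylomicron genes and 13 of 16 glycolysis and lactate genes positive. Interferon-stimulated genes did not, with 5 of 31 positive.

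**Figure D2:**
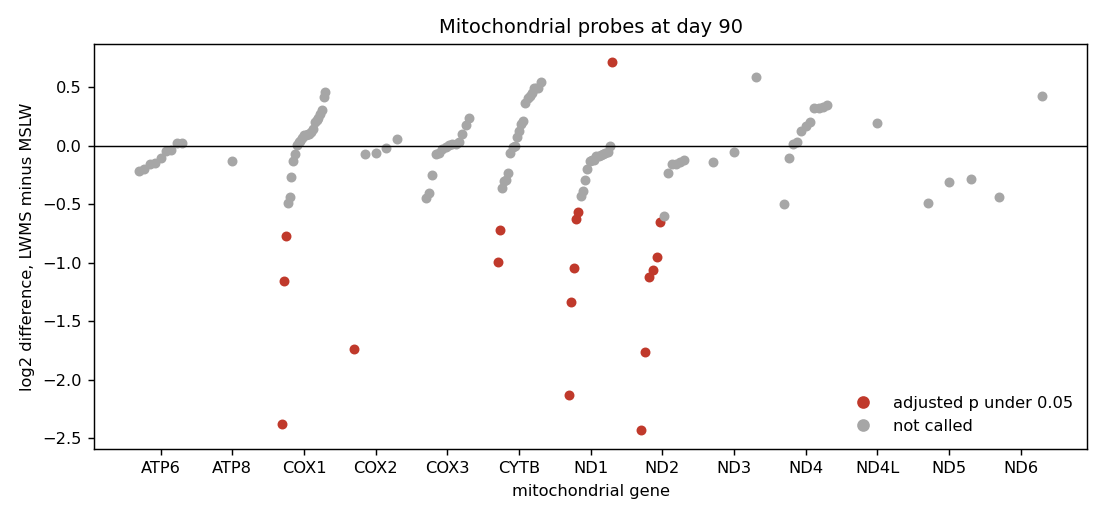
Log2 difference, LWMS minus MSLW at day 90, of each of the 127 mitochondrial probes tested, sorted within each gene. Red points have an adjusted p under 0.05. The lowest red points, at -2.43 in ND2, -2.38 in COX1, -2.13 in ND1 and -1.73 in COX2, stand apart from the grey points of their gene, other red points lie close to them, and 1 ND1 probe is called above 0.

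The sign of the difference between the purebreds was set beside that between the crosses. A probe that follows the sow's breed alone has the same sign in MS minus LW as in LWMS minus MSLW. One that follows the sire's breed alone has the opposite sign. Purebreds differ in sow, sire and autosomes at once, and an autosomal breed difference can give either sign. The sign alone therefore does not assign a probe to sow or sire. The purebred contrast shares no fetuses with the crosses but can share litters with them. Of the 111 called probes, 106 had the same sign in the purebreds at day 90 and 5 the opposite sign, beside 59.2% with the same sign among all probes tested. The purebred difference was itself called with the same sign in 75 of them, 10 higher and 65 lower, beside 4.16% of all probes. It was called with the opposite sign in 2, beside 2.41% of all, so opposite calls were no more frequent than among all probes. Among all probes, 2665 were called in the purebreds (6.58%). The FAM199X probe had log2 signals of -8.05 to -5.59 (median -7.81) in MS and -3.80 to -2.41 (median -3.56) in LW, and its purebred difference was -4.03. PRPS2 was at 0.91 to 1.23 (median 1.04) in MS and -0.21 to 0.72 (median 0.20) in LW, and the ND2 probe was at 4.15 to 4.90 (median 4.37) and 5.84 to 6.54 (median 6.30). In these 3 probes the fetuses of MS sows, purebred or crossed, did not overlap with those of LW sows.

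**Figure D3:**
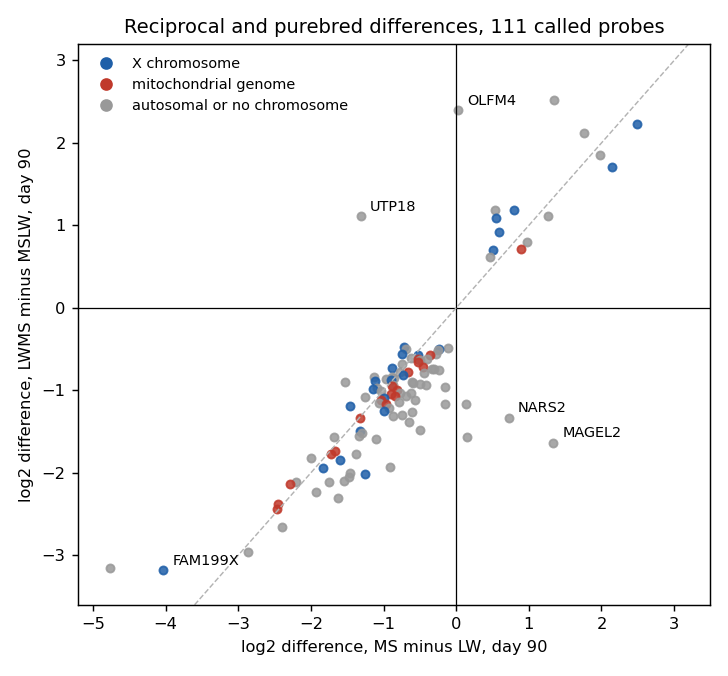
Log2 difference between the crosses (LWMS minus MSLW, vertical) against that between the purebreds (MS minus LW, horizontal) at day 90 for the 111 called probes, coloured by location, with a dashed line of equal values. Of these, 106 lie in the quadrants of equal sign, and MAGEL2, UTP18 and NARS2 are labelled among the 5 of opposite sign.

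MAGEL2 and UTP18 were the 2 probes of opposite sign whose purebred difference was also called, and the other 3 were NARS2, TATDN1 and 1 unnamed probe. MAGEL2, expressed from the paternal copy in mammals and known for its part in endosomal protein recycling, had log2 signals of -5.19 to -2.62 (median -3.66) in LWMS against -3.45 to -1.13 (median -1.61) in MSLW. In the purebreds it was at -3.02 to -1.64 (median -2.13) in MS and -4.65 to -2.81 (median -3.35) in LW, so that fetuses of an MS sire had the higher values in each pairing, with some overlap. The difference between the crosses was -1.64 (standard error 0.34, adjusted p = 0.00819) and that between the purebreds 1.34 (adjusted p = 0.016). The sign held in 5 of 6 slides and in each fit that left out an array, but the call was lost with quantile normalization (-1.56, adjusted p = 0.11) and with the 17 fetuses fitted alone (adjusted p = 0.0512), and the difference was -0.92 with normexp correction, still called. At day 110 the values were -5.19 to -3.59 in LWMS and -3.81 to -2.16 in MSLW, a difference of -1.35 (adjusted p = 0.0674). UTP18, which processes ribosomal RNA of the small subunit, ran the other way, at -0.74 to 0.77 (median -0.14) in LWMS against -2.77 to -0.75 (median -0.82) in MSLW. Purebred MS had -2.47 to -0.56 (median -1.77) and LW -0.93 to 0.21 (median -0.44), so the MSLW median was nearer to that of LW than to that of MS. Its difference between the crosses was 1.11 (standard error 0.26, adjusted p = 0.0288), between the purebreds -1.31 (adjusted p = 0.000908) and at day 110 1.19 (adjusted p = 0.02). UTP18 lost its call without LWMS fetus 508 (adjusted p = 0.106), MSLW fetus 738 (adjusted p = 0.117) or MSLW fetus 485 (adjusted p = 0.081), with no filter on dim probes (adjusted p = 0.0504), and with the 17 fetuses (adjusted p = 0.0995) or the 32 fetuses of day 90 (adjusted p = 0.0542) fitted alone.

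Of 14 paternally expressed genes tested, MAGEL2 was the 1 called, 3 had a positive difference, and the median difference was -0.05. NDN and SNRPN, neighbours of MAGEL2 in the same imprinted cluster, gave -0.02 and -0.03. IGF2, the fetal growth factor, gave 0.27 (adjusted p = 0.757), with log2 signals of 6.41 to 7.40 in LWMS and 6.49 to 7.13 in MSLW. PEG3 gave -0.67 (adjusted p = 0.478), and SLC38A4 and PEG10 gave -0.44 each. Of 11 maternally expressed genes, 0 were called by limma and 0 passed an unadjusted p under 0.05, with a median of 0.04. MEG3 gave -0.68 (adjusted p = 0.549) and H19 0.27 (adjusted p = 0.89), and both overlapped widely between the crosses.

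Autosomal genes that differed included OLFM4, a secreted glycoprotein that marks crypt base stem cells. Log2 signals of the OLFM4 probe were -3.47 to -2.09 (median -2.89) in LWMS, where all 9 arrays were well above background, and -7.51 to -2.81 (median -5.30) in MSLW, where 4 of 8 were. Only MSLW fetus 900, the highest of its group, lay within the range of LWMS. The difference was 2.40 (standard error 0.48, adjusted p = 0.00492), and it was 1.48 at day 110 (adjusted p = 0.197) and 0.03 between the purebreds. OLFM4 was not called with normexp correction (0.88, adjusted p = 0.285) or in the authors' values (1.20, adjusted p = 0.0934). The 4 other crypt stem cell markers tested, LGR5, ASCL2, SMOC2 and SOX9, gave -0.28 to 0.19 and were not called. GDF11, a ligand of the TGF-beta family, was higher by 1.19 (adjusted p = 0.02), a call lost with normexp correction (0.40, adjusted p = 0.441), in the authors' values (0.52, adjusted p = 0.0676), with the 17 fetuses alone and in 5 fits that left out an array. WDR54 was higher by 0.61 (adjusted p = 0.00793).

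The autosomal genes lower in LWMS were of varied function. HOOK2, an adaptor between cargo and microtubules, had -2.04 to -0.82 (median -1.10) in LWMS against 0.08 to 0.64 (median 0.27) in MSLW, apart by -1.59 (standard error 0.19, adjusted p = 8.88e-08). TMPRSS6, a membrane protease that lowers hepcidin, had 3.34 to 4.84 (median 3.77) in LWMS against 4.97 to 5.89 (median 5.56) in MSLW, likewise without overlap, with a difference of -1.56 (standard error 0.20, adjusted p = 5.76e-07). SCNN1B, a subunit of the epithelial sodium channel, had -5.28 to -3.02 (median -4.44) in LWMS against -3.52 to -0.26 (median -2.45) in MSLW, with some overlap. Its difference was -2.23 (standard error 0.40, adjusted p = 0.000787), and -1.22 with normexp correction, still called. PLEKHD1 differed by -2.31 (adjusted p = 0.00093), but by -0.56 (adjusted p = 0.315) with normexp correction and by -0.98 (adjusted p = 0.0106) in the authors' values.

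NARS2, the mitochondrial asparaginyl-tRNA synthetase, had -3.89 to -3.08 (median -3.47) in LWMS against -3.43 to -1.32 (median -1.94) in MSLW, a difference of -1.33 (adjusted p = 0.0106), and its purebred difference had the opposite sign without passing (0.72, adjusted p = 0.17). MTIF2, a mitochondrial translation initiation factor, AK4, a mitochondrial adenylate kinase, and SLC25A48, a mitochondrial carrier, were lower by -1.17, -1.15 and -1.21 (adjusted p = 0.0113, 0.00361 and 0.0264), and leaving out an array ended the call of MTIF2 in 1 fit and of SLC25A48 in 6. RCOR1, a corepressor of transcription with no chromosome in the annotation used, was lower by -1.15 (standard error 0.16, adjusted p = 3.51e-06). CLTC, the clathrin heavy chain, was lower by -1.48 (adjusted p = 0.00812), and TATDN1, a nuclease, by -1.57 (adjusted p = 0.0309), a call lost in 7 fits that left out an array. RFX6, a transcription factor of endocrine cells of gut and pancreas, was lower by -1.77 (adjusted p = 0.0423), a call lost in 7 alternative settings and in 10 of the fits that left out an array. Other autosomal genes lower in LWMS, by -0.50 to -1.07, were KRT2, THUMPD3, USB1, MAP2K1, PRKG2, ZC3H7A, CCAR1 and DPP4. The calls of USB1 and PRKG2 were each lost in 7 fits that left out an array, of ZC3H7A in 10, of CCAR1 in 6 and of THUMPD3 in 3.

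In DPP4 and MAP2K1 a single probe stood against the others of its gene. DPP4 is a peptidase of the enterocyte brush border. Its probe A_72_P053121 had -3.29 to -1.85 (median -2.37) in LWMS against -1.79 to -1.28 (median -1.40) in MSLW, a difference of -1.03 (standard error 0.19, adjusted p = 0.000787), whereas 3 other probes of the gene gave -0.20 to 0.08 and were not called. MAP2K1 encodes the kinase that activates ERK. Its probe O10188 was called at -0.61 (adjusted p = 0.0309), 5 other probes gave 0.14 to 0.41 without passing, and the call of O10188 was lost under 7 alternative settings and in 7 of the fits that left out an array.

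**Figure D4:**
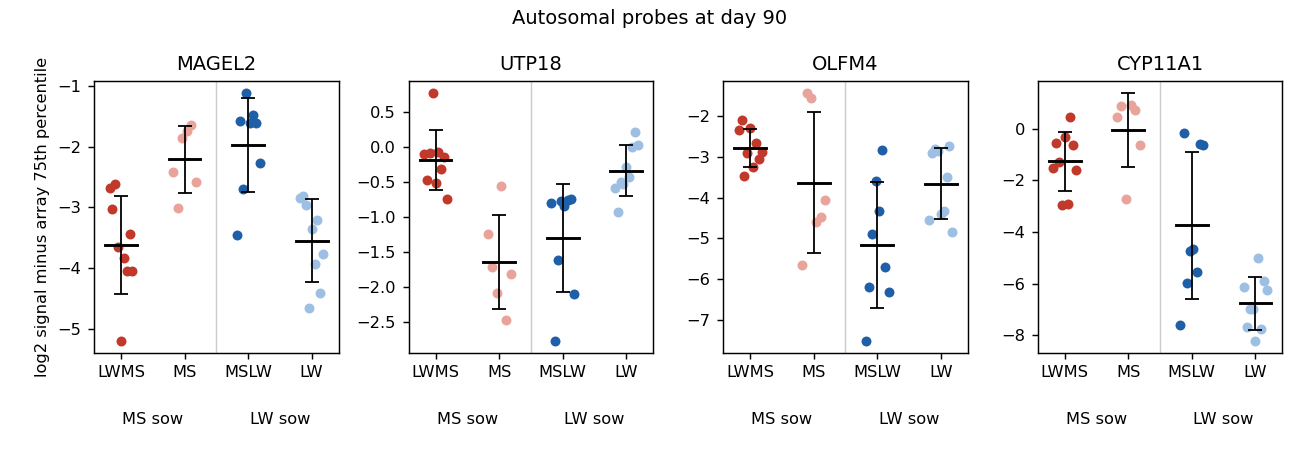
Log2 signal (75th percentile of each array set to 0) at day 90 for 1 probe each of the autosomal genes MAGEL2, UTP18, OLFM4 and CYP11A1, plotted as for the X-linked and mitochondrial probes, with the mean and SD of each group. MAGEL2 pairs LWMS with LW and MSLW with MS, with some overlap. For UTP18 LWMS lies with LW, while MSLW is spread, with part of its fetuses inside the LW range. OLFM4 is low in part of the MSLW fetuses, and CYP11A1 is split within MSLW.

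The study names 18 genes for an effect of the sow's breed that depends on gestational age. PF4, a member of this set, had no tested probe. Between the crosses at day 90, 3 were called, SRPX2, MAP2K1 and ZNF705A, all lower in LWMS. The call of MAP2K1 was lost under 7 alternative settings. Of all probes tested, 0.274% were called. That is a share of probes, whereas a gene of this set counted if any of its probes was called. The study chose the 18 genes on these samples with a test over both ages and the purebreds, so they are no independent evidence. Its test and the present one ask different questions. CYP11A1, the enzyme that opens steroid synthesis by cleaving the side chain of cholesterol, had log2 signals of -2.94 to 0.45 (median -1.29) in LWMS against -7.62 to -0.18 (median -4.70) in MSLW on probe A_72_P381703. All 9 LWMS arrays were well above background for CYP11A1 and 4 of 8 MSLW arrays were, with the MSLW values split between a low and a high set. The difference was 2.49 (standard error 0.66, adjusted p = 0.0787), beside 6.71 between the purebreds, and the 6 probes of the gene gave 0.70 to 2.54 without passing. The probe at 2.54 was called with quantile normalization (2.49, adjusted p = 0.0368) and without MSLW fetus 738 (3.05, adjusted p = 0.00939), 455 (3.004, adjusted p = 0.0144) or 485 (3.02, adjusted p = 0.0125). SMS, spermine synthase, gave 1.09 (adjusted p = 0.464) on the probe that the study's tables name, which the array file describes as another gene and for which no MSLW array at day 90 was well above background, and 0.32 to 0.35 on its 3 other probes. FARP1 (-0.81, adjusted p = 0.104), RNPC3 (-0.73 and -0.46, adjusted p = 0.12 and 0.0751) and HSPB3 (1.05, adjusted p = 0.386) were not called either. FARP1 and RNPC3 passed without LWMS fetus 504 (adjusted p = 0.0361 and 0.0478), and FARP1 with array weights (adjusted p = 0.0218). Of the others, JMJD6, MTFR2, BCKDHB, CD163, PAK2, TALDO1, POLR3D and ELP3 had differences of -0.38 to 0.39, and the call of ZNF705A (-0.63, adjusted p = 0.012) was lost under 5 alternative settings.

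At day 110 the same crosses were represented by other fetuses, and most of the day 90 differences had the same sign there. Of the 111 probes, 100 had the same sign at day 110, beside 62.7% of all probes tested, and 47 were called there too with that sign, while 269 of all probes were called at day 110 (0.664%). None of the 11 with the opposite sign was called at day 110. FAM199X had -8.27 to -6.86 (median -7.81) in LWMS against -3.86 to -3.03 (median -3.57) in MSLW, a difference of -4.20, and PRPS2 had 0.56 to 1.08 (median 0.84) and -0.60 to 0.15 (median -0.47), a difference of 1.18. The ND2 probe gave -1.36, with 3.51 to 5.01 in LWMS and 5.59 to 6.19 in MSLW. In each of these 3 probes the crosses did not overlap at either age.

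The test of the change with age itself called 2 of 40515 probes (0.00494%), and 2211 (5.46%) passed an unadjusted p under 0.05. The SRPX2 probe A_72_P210412 had -1.84 to -1.02 (median -1.35) in LWMS against 0.16 to 0.83 (median 0.64) in MSLW at day 90, and -1.39 to 0.88 (median -0.38) and -0.65 to 0.52 (median -0.08) at day 110. The crosses were thus apart at day 90 and overlapped at day 110. The difference of the differences was -1.72 (standard error 0.28, adjusted p = 0.0039). For 1 BAG6 probe, of a chaperone in protein quality control, the values were -4.17 to -3.00 (median -3.57) in LWMS against -5.39 to -3.70 (median -4.13) in MSLW at day 90, and -5.46 to -4.12 (median -4.76) and -4.25 to -1.90 (median -3.23) at day 110. That probe was the higher in LWMS at day 90 (0.83, adjusted p = 0.253) and the lower at day 110 (-1.63, adjusted p = 0.00144), with a difference of the differences of 2.45 (standard error 0.42, adjusted p = 0.0039). It was 1.18 with normexp correction and 1.34 in the authors' values, called both times. The other 3 BAG6 probes gave 0.03 to 0.12 at day 90. Neither they nor the second SRPX2 probe passed the test of the change with age.

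**Figure D5:**
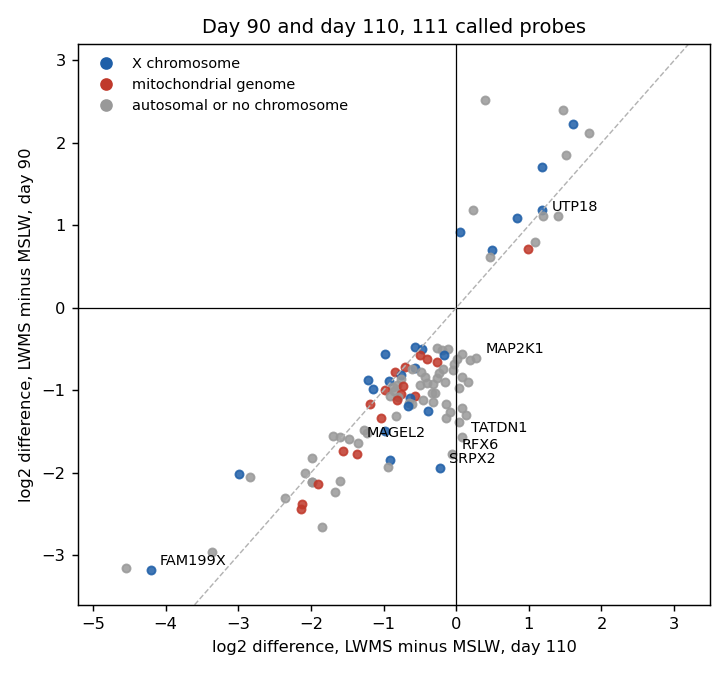
Log2 difference between the crosses (LWMS minus MSLW) at day 90 (vertical) against day 110 (horizontal) for the 111 probes called at day 90, coloured by location, with a dashed line of equal values. Of these, 100 have the same sign at both ages, and SRPX2, at -1.94 and -0.23, lies far from the dashed line.

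Gene groups of digestion, metabolism and immunity were compared by the brightest probe of each gene. No member of the lists of cortisol response, hypoxia, glycolysis, gluconeogenesis, hexose transport, chylomicron formation, fatty acid and bile uptake, amino acid transport, polyamines, branched-chain breakdown, fatty acid oxidation, cholesterol synthesis, interferon response, antigen presentation, chemokines, cell cycle or heat shock was called by limma. In all lists together 4 genes were called, SRPX2, ATRX, MAGEL2 and OLFM4. Members that passed an unadjusted p under 0.05, beside 10.7% of all probes, were 7 of 23 genes of antigen presentation, all higher in LWMS, 5 of 16 of glycolysis and lactate, all higher, and 4 of 21 heat shock genes, all higher. The antigen presentation genes included SLA-DRA (0.65, adjusted p = 0.308) and SLA-DMB (0.57, adjusted p = 0.201), class II components, and the glycolytic ones ENO1 and SLC16A1 (0.41 each). SLA-DRA ran from 3.80 to 4.69 in LWMS and from 1.18 to 4.27 in MSLW, which overlapped. Of 31 interferon-stimulated genes, 5 had a positive difference, the median was -0.25, and RSAD2 (-1.59, adjusted p = 0.288) and EIF2AK2 (-0.45, adjusted p = 0.407) passed the unadjusted threshold.

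Digestive genes gave no call on their brightest probe, and DPP4, described above, was the brush border enzyme with another probe called. Of 15 brush border enzymes tested on the brightest probe, 11 had a positive difference and the median was 0.25, with ALPI, intestinal alkaline phosphatase, at 1.20 (adjusted p = 0.495) and LCT, lactase, at 0.25 (adjusted p = 0.863). The 16 chylomicron genes had a median of 0.30 and the 12 amino acid and peptide transporters 0.28, again without a call.

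Markers of other cell types that whole jejunum can hold were read beside these groups. Macrophage markers had mean log2 signals of -1.20 to -0.27 (median -0.89) in LWMS against -2.18 to -0.63 (median -1.07) in MSLW, and 4 of 10, the complement genes C1QA (0.71), C1QB (0.72) and C1QC (0.55) and AIF1 (0.40), were higher at an unadjusted p under 0.05, while CD163, CSF1R, CD14 and MSR1 gave 0.00 to 0.11. Their part in the antigen presentation values was not tested. Smooth muscle markers had a median difference of -0.08 and enterocyte markers 0.17, and 0 of 9 of each were called by limma, with MYH11 (-0.46) the only member of these lists at an unadjusted p under 0.05. Among the X-linked genes of the textbook list, 2 of 78 were called, SRPX2 and ATRX, both lower, and the median difference was 0.05. Of the 4 Y-linked genes, EIF1AY (0.31) passed an unadjusted p under 0.05 and DDX3Y (0.23), ZFY (0.17) and UTY (-0.15) did not.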

How the data were processed

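The study measured jejunum RNA of 63 male fetuses on single-colour Agilent arrays, 1 fetus per array, on 8 slides. Groups are those of the labels. The authors deposited each array as scanned, with spot intensity that Agilent Feature Extraction 10.10.1.1 had corrected for background (version per the submitters' processing notes), and a log2 matrix of 39446 probes. Against the scanner's log2 signals, columns of that matrix correlated at 0.989 to 0.997 and had medians of 8.61. The log2 scale and the direction of the matrix are therefore settled, while the rule behind its probes is not given in the sources used here.

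From the processed intensity, the log2 value minus the 75th percentile of the array was taken. Control spots were left out, outlier spots were set to missing (2775 of the tested probes lacked a value), and spots of a probe were averaged. Background subtraction leaves the size of changes on dim probes uncertain. Testing required a signal well above background on 75% or more of the arrays in any group (40515 of 60305 probes), and this filter sets how many tests the adjustment covers. The means of 8 groups were fitted over all 63 arrays with limma (3.58.1, under R 4.3.3). P-values are two-sided and Benjamini-Hochberg adjusted over the probes tested, called under 0.05. The study fitted the sow as a random term. Without it, p-values are too small if litters differ. The number of arrays limits precision. The members and gene lists were chosen with earlier results of these data known.

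Names came from the array files, the study's tables or RefSeq (29294 probes), and chromosomes from Sscrofa11.1 (27285 probes). Named genes are the 12 called genes with the largest differences in each direction, the 12 largest called X-linked, Y-linked or mitochondrial genes, up to 4 called members of each list, up to 8 genes called in the test with age and up to 8 with an opposite purebred call, and genes that the study tables for the sow's breed, with every tested probe of a gene considered. Other called genes given by name, and unnamed probes, were chosen after their values were seen. PF4, of the last set, had no tested probe. Not every gene that this rule names is reported here. A gene of a list was represented by its brightest tested probe. The fit was tested on simulated data. Alternatives were other normalizations, normexp with an offset of 50, the authors' values, other filters, the slide as a block, array weights, fewer fetuses and a minimum difference of 0.5.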

Additional observations from a re-analysis of the deposited data

Results flagged for a closer look

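The difference between the crosses changed with age for the SRPX2 probe A_72_P210412 (day 90 minus day 110, -1.72, adjusted p = 0.0039, limma) and for 1 BAG6 probe (2.45, adjusted p = 0.0039), the 2 of 40515 probes for which the test of that change passed.

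Single fetuses stood far from their group in 4 of the 62 sets of values looked at, where chance gives about 5%. MSLW fetus 900 had a log2 signal of -2.06 for MUM1L1, with the next fetus at -3.32, and of -0.57 for ZNF705A, with the next at -1.21. Without it MUM1L1 stayed called and ZNF705A did not (-0.51, adjusted p = 0.0791). LWMS fetus 508 had 0.77 for UTP18, with the next at -0.08. The array of LWMS fetus 823 had 87.6% of probes well above background, with the next at 67.5%.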

How the results depend on the processing

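None of the 111 called probes changed sign under the alternatives run. The count of calls was 188 with the slide as a block and 564 with array weights, and between 78 and 153 under the other settings. Leaving out each array gave 77 to 194 calls, and 194 without LWMS fetus 504. Probes called for the change with age numbered 1 with every array well above background and 9 with array weights, and 2 to 4 when an array was left out (4 without MSLW fetus 738). Purebred calls of the same sign were 185 with array weights and 61 to 91 with an array left out. The X-linked share was 1.84% with median centring, 6.13% with array weights and 2.21 to 3.06% with an array left out. The mitochondrial share was 25.2% with quantile normalization and in the authors' values, 23.6% with array weights and 14.2 to 18.1% with an array left out. List genes called numbered 7 with quantile normalization, 8 in the authors' values, 2 with every array well above background, 10 with array weights and 4 to 5 with an array left out. The share of calls higher in LWMS, 14.4%, was 26.9% with median centring, 47 of 188 with the slide block, 32.4% with array weights, 27.5% with the 17 fetuses alone, 27.0% with the 32 of day 90 and 21.9% without LW fetuses 484 and 469, and 13.8 to 23.1% with an array left out. The cause of these moves was not tested. No paired analysis was possible because the fetus numbers are unique and the labels share no replicate numbers between groups. The main fit did not match the crosses by slide. Slide entered only the fit with the slide as a block and the signs counted within slides. Dim probes limit what can be said of size, since 2 called probes were not well above background on any LWMS array and 1 on no MSLW array.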
